A study of Homo sapiens with 18 samples.

Results

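Senescent IMR90 cells given RG7388 were compared with senescent IMR90 cells given HDM201, across all genes, in the 6 libraries of IR_RG7388 and IR_HDM201 (3 each) out of the 18 libraries of the series. IMR90 is a strain of primary human lung fibroblasts, wild type in all groups. RG7388 (idasanutlin) and HDM201 (siremadlin) both block MDM2. In irradiated cells each compound was given from day 4 after irradiation until collection on day 11, which is 7 days of treatment, and IR_DMSO cells received the solvent alone. Prolif_RG7388, Prolif_HDM201 and Prolif_DMSO, cells that were not irradiated, served to show whether a difference was also seen outside senescence. The study used the compounds at different doses, so compound and dose cannot be told apart here, and no difference below ranks their potency. All cells came from 1 strain, and the study's methods count a single well of a plate as a replicate of cultured cells, so p-values measure the spread between wells.

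MDM2 is the ligase that marks p53 for destruction, and p53 switches on the gene of MDM2 itself. A freed p53 also switches on CDKN1A, which encodes the CDK inhibitor p21. With CDKs blocked, the DREAM complex and RB hold down a large set of cell cycle genes, through E2F elements in promoters of replication genes and through CHR elements (TTTGAA) in promoters of mitotic genes, where CCAAT boxes bound by NF-Y are also common. Senescent cells have left the cycle, so their remaining transcripts of these genes are few, and they secrete inflammatory factors known as the senescence-associated secretory phenotype (SASP).

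In the edgeR fit to all 18 libraries, most genes called between the compounds in senescent cells were cell cycle genes. Of 18151 genes tested with edgeR's quasi-likelihood test, 41 were called at an adjusted p under 0.05, all 41 lower with RG7388 than with HDM201 (0.226% of genes tested), and 0 were called higher (0%). At an unadjusted p under 0.05, 592 genes were higher and 723 lower, and the smallest adjusted p among the higher genes was 0.0954. The DESeq2 Wald test called 104 genes, 15 higher and 89 lower, and all 41 were among them. The falls ran from 1.53-fold to 3.34-fold with a median of 1.91-fold, and 15 of the 41 reached 2-fold. Of the 41 genes, 22 stood in the list of mitosis genes and 7 in the list of DNA replication and E2F target genes. LMNB1 and EXO1 stood in other lists, and 10 (APOBEC3B, CDKN3, HJURP, MND1, ZNF367, WDR76, NEIL3, PSMC3IP, CENPU and EZH2) stood in none. In bulk RNA, fewer cells that express a gene and less RNA of it per cell cannot be told apart.

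**Figure D1:**
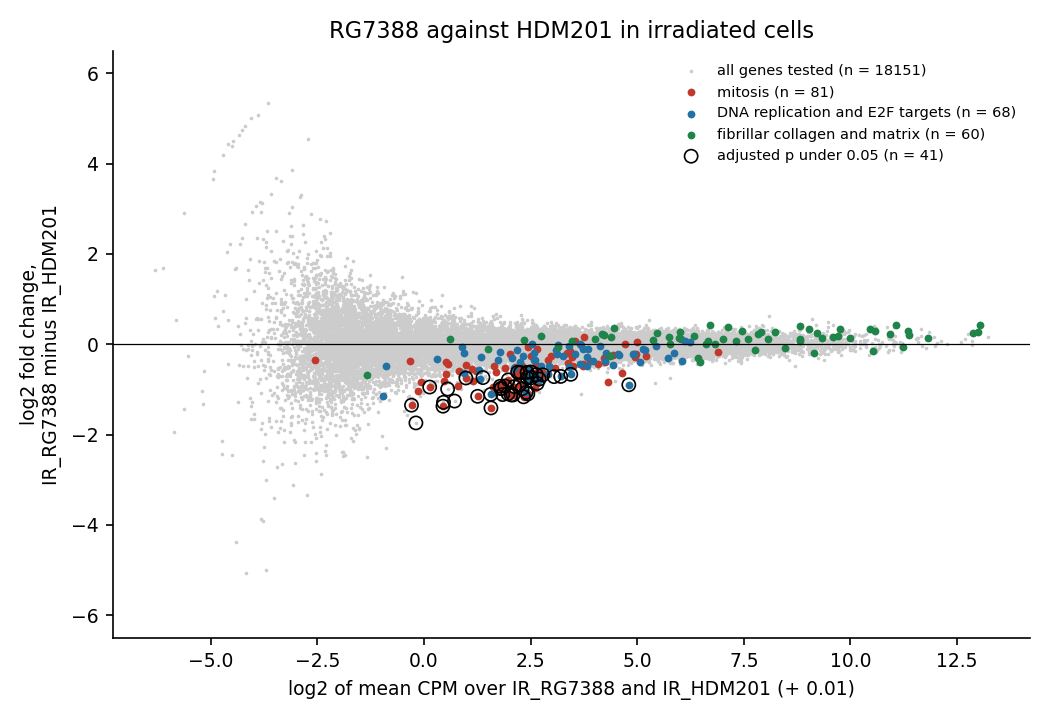
Each point is a gene, with its level (log2 of the mean CPM over IR_RG7388 and IR_HDM201 plus 0.01) on the x axis and the log2 fold change, RG7388 minus HDM201, on the y axis. The 41 ringed genes all lie below 0 and belong largely to the mitosis list (red) and the replication list (blue), while most genes of the matrix list (green) lie a little above 0.

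Levels are given in CPM, counts relative to library size after TMM scaling. Those summed over the 41 genes were 145, 138 and 141 in the IR_RG7388 libraries and 290, 255 and 224 in the IR_HDM201 libraries. The sum was 416 to 437 in IR_DMSO and 2960 to 3290 in the proliferating libraries given a compound. RG7388 libraries were lowest, HDM201 libraries between and DMSO libraries highest. The genes were chosen for the difference between the compounds in these libraries, so the order of RG7388 and HDM201, the lack of overlap and the sign in refits of the same libraries describe them and lend no support. These were low levels: 37 of the 41 genes were under 10 CPM in both compound groups. The libraries of each of the 41 genes did not overlap either, which was also true in the lower direction for 9.5% of all genes tested and in the higher direction for 9.99%.

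Library 1 of IR_HDM201 held the highest level of its group for 26 of the 41 genes, library 2 for 13 and library 3 for 2. In library 1 mitochondrial transcripts took 2.38% of counts, against 3.21% and 2.83% in libraries 2 and 3 and 3.07% to 3.23% in IR_RG7388, and their part in the result was not tested. Taken alone against the mean of IR_RG7388, the IR_HDM201 libraries gave median falls of 2.14-fold, 1.83-fold and 1.61-fold, and all 41 genes were lower in each case. Without library 1 of IR_HDM201 only ASF1B and CENPM kept their call, although all 41 remained below 0 with a median log2 fold change of -0.79. A fit to the 6 libraries of this comparison alone called 0 genes with edgeR (2043 at an unadjusted p under 0.05, smallest adjusted p 0.109), with all 41 below 0. A pair of libraries outside the comparison, IR_DMSO 1 and Prolif_HDM201 3, stood apart from their groups. Without them 308 genes were called, 182 lower (0.992% of genes tested) and 126 higher (0.687%), and all 41 were among them. Of the lower genes 38 stood in the mitosis list and 24 in the replication list. Of the 126 higher genes 100 stood in no list, CEMIP and LRP1 among them, so this fit was not limited to cell cycle genes.

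Promoters of 4 called genes, CDK1 and CDC20 of the mitosis list and RRM2 and ASF1B of the replication list, are shown as examples of sequence context. The sequences are the 250 bases before the start site, from RefSeq (GRCh38.p14), 5′ to 3′ on the strand of the gene. Capitals mark CCAAT, the CHR-type letters TTTGAA, and their reverse complements ATTGG and TTCAAA. Each of the 4 held at least 1 CCAAT. Among called genes with a matched window, only KIF2C, BUB1B, LMNB1, MYBL2, MND1, NDC80, TK1 and EXO1 held 0.
CDK1, chr10:60778081-60778330 (plus strand): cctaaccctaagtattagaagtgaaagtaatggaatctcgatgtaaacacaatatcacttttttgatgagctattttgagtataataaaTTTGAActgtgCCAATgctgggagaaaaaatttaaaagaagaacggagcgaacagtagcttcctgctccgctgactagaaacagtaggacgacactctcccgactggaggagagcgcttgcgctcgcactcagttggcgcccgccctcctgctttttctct
CDC20, chr1:43358731-43358980 (plus strand): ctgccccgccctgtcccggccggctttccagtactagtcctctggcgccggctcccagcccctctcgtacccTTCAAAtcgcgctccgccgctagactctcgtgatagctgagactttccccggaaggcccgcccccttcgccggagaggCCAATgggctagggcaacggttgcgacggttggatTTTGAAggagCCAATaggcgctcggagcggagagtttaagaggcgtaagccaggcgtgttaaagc
RRM2, chr2:10122489-10122738 (plus strand): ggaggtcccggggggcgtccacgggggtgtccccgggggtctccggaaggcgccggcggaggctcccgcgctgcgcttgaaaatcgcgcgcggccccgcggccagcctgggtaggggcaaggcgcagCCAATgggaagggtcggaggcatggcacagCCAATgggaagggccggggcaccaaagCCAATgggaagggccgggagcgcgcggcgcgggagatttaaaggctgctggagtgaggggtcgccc
ASF1B, chr19:14136590-14136839 (minus strand): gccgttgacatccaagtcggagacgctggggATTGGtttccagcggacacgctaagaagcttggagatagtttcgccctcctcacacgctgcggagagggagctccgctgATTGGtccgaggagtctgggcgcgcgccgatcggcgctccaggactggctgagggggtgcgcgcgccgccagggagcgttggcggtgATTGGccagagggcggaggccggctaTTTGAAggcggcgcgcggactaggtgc

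Motifs were searched on both strands in the 250 bases before the start of 27305 genes. CCAAT was in 33% of all promoters, in 34.5% of the 11692 promoters of genes tested, in 67.2% of the 67 mitosis promoters that could be matched (of 81 genes) and in 56.9% of the 58 replication promoters (of 68 genes). TTTGAA was in 13.6% of all promoters, in 8.58% of those of genes tested, in 43.3% of the mitosis promoters and in 3.45% of the replication promoters. The E2F 8-mers TTTCGCGC, TTTGGCGC, TTTCCCGC and TTTGCCGC, which do not contain CCAAT or TTTGAA, were found in 2.79% of all promoters, 4.26% of those of genes tested, 5.97% of mitosis promoters and 32.8% of replication promoters. A single repeat of the p53 response element was found in 5.53% of all promoters, 4.7% of those of genes tested, 7.46% of mitosis promoters and 8.62% of replication promoters. A promoter was matched for 32 of the 41 called genes, under the coverage of 80% set here for giving a share. These are counts of letters in a short window and do not show that a factor is bound.

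Mitosis genes made up the largest group. Of 81 mitosis genes tested, 22 (27.2%) were called lower and 0 higher, 77 had a log2 fold change below 0, and the median was -0.60, beside -0.004 for all genes tested. CDK1 (ENSG00000170312.16, chr10:60778331-60794852 in hg38), the kinase that drives entry into mitosis, was at 3.38, 3.40 and 2.70 CPM with RG7388 and at 9.37, 6.50 and 4.89 CPM with HDM201. All RG7388 libraries were below all HDM201 libraries, and CDK1 was 2.24-fold lower (log2 fold change -1.16 ± 0.19 SE, adjusted p = 0.00558). Its cyclin partners CCNA2 and CCNB2 were also lower, by 1.60-fold (adjusted p = 0.0279) and 1.54-fold (adjusted p = 0.036). PBK, a mitotic kinase, fell from 5.50, 3.87 and 3.38 CPM with HDM201 to 1.46, 1.98 and 1.58 CPM with RG7388, a 2.66-fold difference (log2 fold change -1.41 ± 0.21 SE, adjusted p = 0.00344).

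The called members included MAD2L1, BUB1, BUB1B and TTK of the spindle assembly checkpoint, which delays chromosome separation until every kinetochore is attached. MAD2L1, the checkpoint protein that holds CDC20, was at 3.51, 2.94 and 3.97 CPM with RG7388 and at 9.23, 5.97 and 6.80 CPM with HDM201 (2.14-fold lower, log2 fold change -1.10 ± 0.16 SE, adjusted p = 0.00344). The checkpoint kinases BUB1 (log2 fold change -0.94), BUB1B (-0.90) and TTK (-1.15) were lower too, with adjusted p of 0.005, 0.00344 and 0.005. CDC20, which activates the anaphase-promoting complex and carries the 250 bases shown above, was at 3.52, 3.03 and 3.47 CPM with RG7388 and at 8.30, 6.46 and 4.71 CPM with HDM201. It was 1.98-fold lower (log2 fold change -0.98 ± 0.16 SE, adjusted p = 0.005). UBE2C, the ubiquitin-conjugating enzyme of that complex, was 1.90-fold lower (adjusted p = 0.005).

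Other called members encode parts of the centromere, the kinetochore and the spindle. CENPA, the histone H3 variant of centromeres, was 0.43 ± 0.13 CPM (SD, n = 3) with RG7388 and 1.18 ± 0.32 CPM with HDM201, a 2.55-fold difference (adjusted p = 0.005). CENPM, part of the constitutive centromere network, was 0.72 ± 0.25 CPM with RG7388 and 1.99 ± 0.38 CPM with HDM201, a 2.59-fold difference (adjusted p = 0.00344). NDC80 was 1.97-fold and KIF2C, a kinesin that takes microtubules apart, 2.18-fold lower. BIRC5 (survivin), a subunit of the chromosomal passenger complex, was at 4.35, 4.39 and 4.67 CPM with RG7388 and at 8.83, 8.26 and 7.20 CPM with HDM201 (log2 fold change -0.87 ± 0.14 SE, adjusted p = 0.00344). MKI67, the common marker of cycling cells, was not called: it was at 10.9, 9.56 and 8.12 CPM with RG7388 and at 18.5, 10.1 and 10.3 CPM with HDM201 (log2 fold change -0.47 ± 0.37 SE, adjusted p = 0.829).

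Replication genes differed by less. Of 68 tested, 7 (10.3%) were called lower and 0 higher, 63 were below 0, and the median log2 fold change was -0.31. RRM2 (ENSG00000171848.15, chr2:10120698-10211725), the small subunit of ribonucleotide reductase, was the called gene with the highest level. It was at 21.6, 18.6 and 18.4 CPM with RG7388 and at 45.7, 34.8 and 28.3 CPM with HDM201 (1.86-fold lower, log2 fold change -0.90 ± 0.13 SE, adjusted p = 0.00344). ASF1B (ENSG00000105011.9, chr19:14119512-14136613), a histone chaperone, was at 3.52, 3.65 and 2.96 CPM with RG7388 and at 6.26, 8.17 and 6.97 CPM with HDM201 (2.09-fold lower, log2 fold change -1.07 ± 0.15 SE, adjusted p = 0.00344). CDC6, which loads the replicative helicase, was at 6.36, 6.84 and 7.83 CPM with RG7388 and at 11.8, 11.7 and 10.8 CPM with HDM201 (1.64-fold lower, adjusted p = 0.005). CCNE2, the cyclin that starts S phase with CDK2, was at 1.88, 1.79 and 1.97 CPM with RG7388 and at 4.61, 4.09 and 3.38 CPM with HDM201 (2.16-fold lower, adjusted p = 0.005). The remaining called members were DTL, which directs destruction of licensing factors, TK1, a thymidine kinase, and MYBL2, a transcription factor of the cycle, at 1.67-fold, 1.59-fold and 1.70-fold lower.

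**Figure D2:**
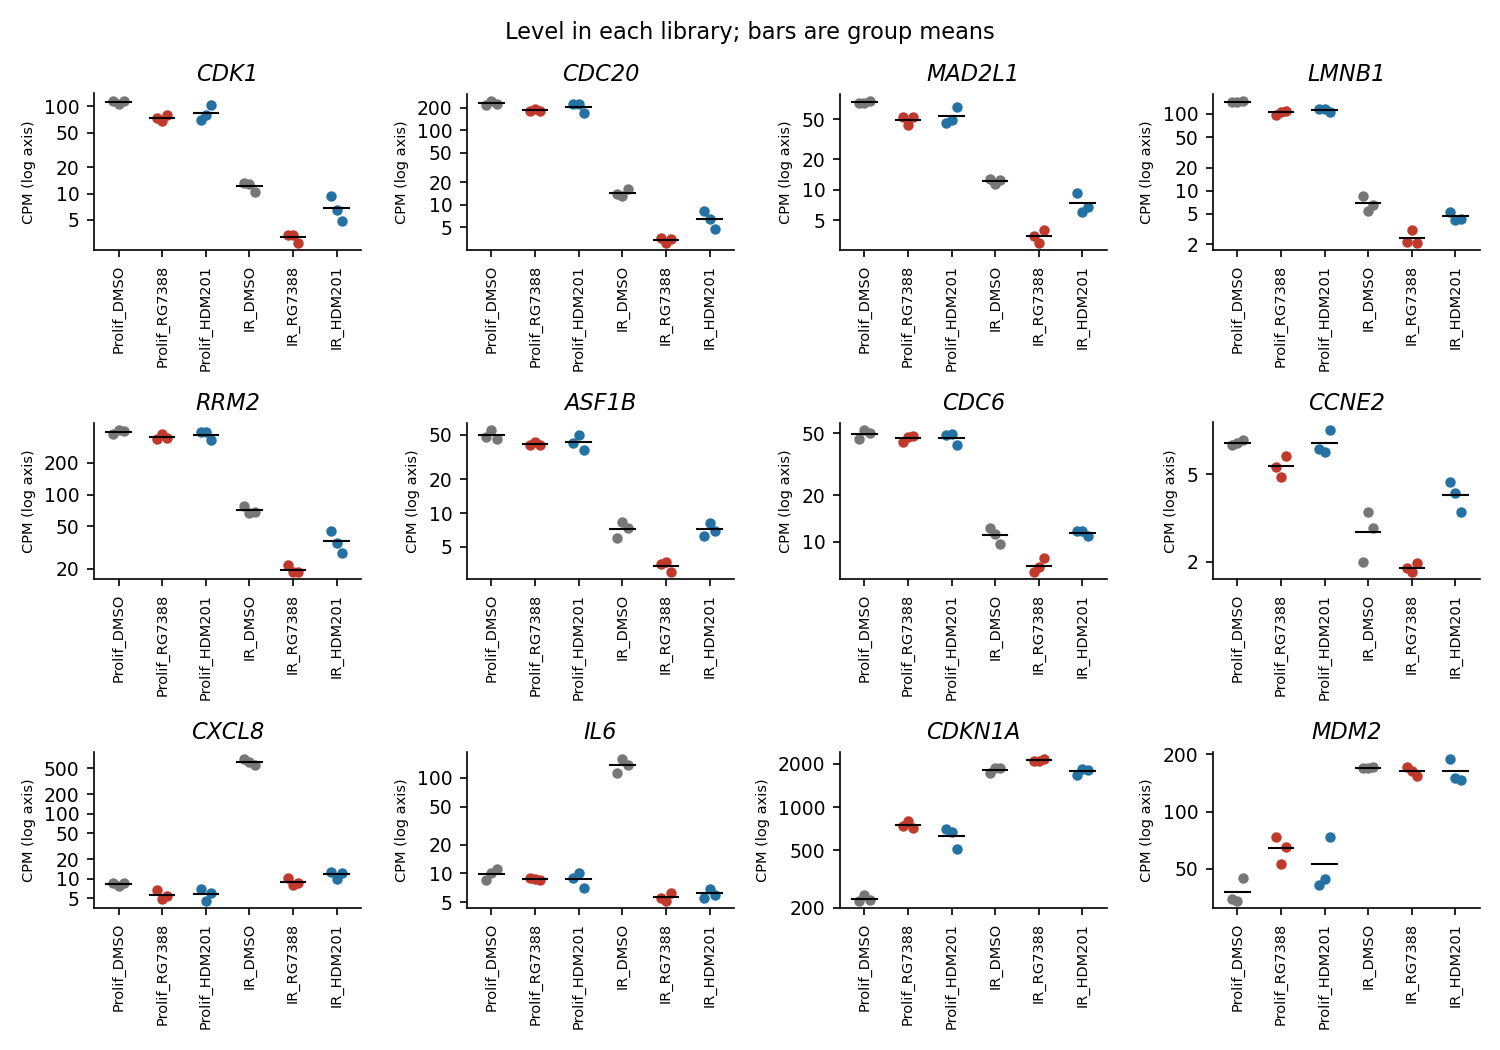
Level (CPM, log axis) of 12 genes in all 18 libraries, with 1 point per library and a bar at the group mean. In the irradiated groups the RG7388 points (red) of CDK1, CDC20, MAD2L1, LMNB1, RRM2, ASF1B, CDC6 and CCNE2 all lie below the HDM201 points (blue), while those of CXCL8, IL6 and MDM2 overlap.

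Outside these lists, LMNB1 and MND1 had large differences. LMNB1 encodes lamin B1, a protein of the nuclear lamina whose loss marks senescence. It was at 2.11, 3.03 and 2.05 CPM with RG7388 and at 5.29, 4.17 and 4.31 CPM with HDM201 (1.97-fold lower, log2 fold change -0.98 ± 0.16 SE, adjusted p = 0.005). It was 1 of 18 genes called in the list of lamins, nuclear envelope and HMG proteins, where HMGB2 had a log2 fold change of -0.56 (adjusted p = 0.0782). HMGB2 was called lower by the DESeq2 Wald test (adjusted p = 0.00837) and by edgeR without the pair of libraries that stood apart (adjusted p = 0.00277). MND1, a partner in homologous strand exchange, had the largest fall: 0.55, 0.28 and 0.34 CPM with RG7388 and 1.61, 1.54 and 0.89 CPM with HDM201 (3.34-fold lower, log2 fold change -1.74 ± 0.30 SE, adjusted p = 0.00688). APOBEC3B, a DNA cytidine deaminase, was 2.44-fold lower, and CDKN3, a phosphatase that acts on CDKs, 2.39-fold lower (adjusted p = 0.00344 for both).

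Homologous recombination and Fanconi anemia genes, which mend double-strand breaks and crosslinks mainly in S and G2 phase, had a median log2 fold change of -0.33, and 35 of 41 were below 0. Of them 1 was called lower, the exonuclease EXO1, at 1.84, 2.01 and 2.02 CPM with RG7388 and 3.31, 3.34 and 3.07 CPM with HDM201 (adjusted p = 0.0318). RAD51AP1 and FANCD2 were 2.01-fold and 1.51-fold lower in value without a call (adjusted p = 0.0614 and 0.105). In this fit RAD51AP1 was just outside the threshold, with PIMREG (log2 fold change -0.72, adjusted p = 0.0569), while the last genes inside it were CCNB2 and SPC24 at 0.036. The DESeq2 Wald test called RAD51AP1 and FANCD2 lower (adjusted p = 0.00487 and 0.0138). So did edgeR without the pair of libraries that stood apart (adjusted p = 0.00732 and 0.0192), where 4 of the 41 were called lower and 0 higher. Of 27 genes of non-homologous end joining and break signaling 0 were called, with a median of -0.03, and without that pair 1 was called higher and 0 lower.

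The values against irradiated cells given DMSO are set side by side here. Both comparisons share the IR_DMSO libraries, so their likeness is not a result. The 41 genes were chosen for lower values with RG7388 than with HDM201 in these same libraries. That choice favors calls lower than IR_DMSO with RG7388 and disfavors them with HDM201, so the counts over the 41 are a description. With RG7388 all 41 genes were called lower than in IR_DMSO (median log2 fold change -1.60), where 11.9% of genes tested were called lower and 10.9% higher. With HDM201 30 of the 41 were called lower, 1 was called higher and 10 were not called (median -0.71), where 11.3% of genes tested were called lower and 9.96% higher. The gene called higher was CCNE2, at 2.00, 3.38 and 2.86 CPM in IR_DMSO. Its log2 fold change was 0.57 with HDM201 (adjusted p = 0.0264) and -0.54 with RG7388 (adjusted p = 0.0421).

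In several of the called replication genes HDM201 libraries stood near the DMSO level. The choice of genes with higher values with HDM201 favors this, so the values of single called genes are a description. ASF1B was at 5.97, 8.35 and 7.38 CPM in IR_DMSO, so that its log2 fold change was -0.03 with HDM201 (adjusted p = 0.917) and -1.10 with RG7388 (adjusted p = 9.48e-06). CDC6 was at 12.3, 11.3 and 9.64 CPM in IR_DMSO, with 0.04 for HDM201 (adjusted p = 0.835) and -0.67 for RG7388 (adjusted p = 0.000212). DTL had -0.08 (adjusted p = 0.723) and -0.82 (adjusted p = 6.09e-05). Mitotic genes were mostly lower with both: CDK1 was at 13.2, 12.8 and 10.4 CPM in IR_DMSO, with -0.77 for HDM201 (adjusted p = 0.00365) and -1.94 for RG7388 (adjusted p = 1.23e-07). Over the lists, 76 of 81 mitosis and 42 of 68 replication genes were called lower with RG7388, and 61 and 15 with HDM201. Called higher were 0 and 1 with RG7388, and 1 and 1 with HDM201. Of all genes tested 11.9% were called lower with RG7388 and 11.3% with HDM201. Such counts against IR_DMSO do not test the compounds against each other.

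**Figure D3:**
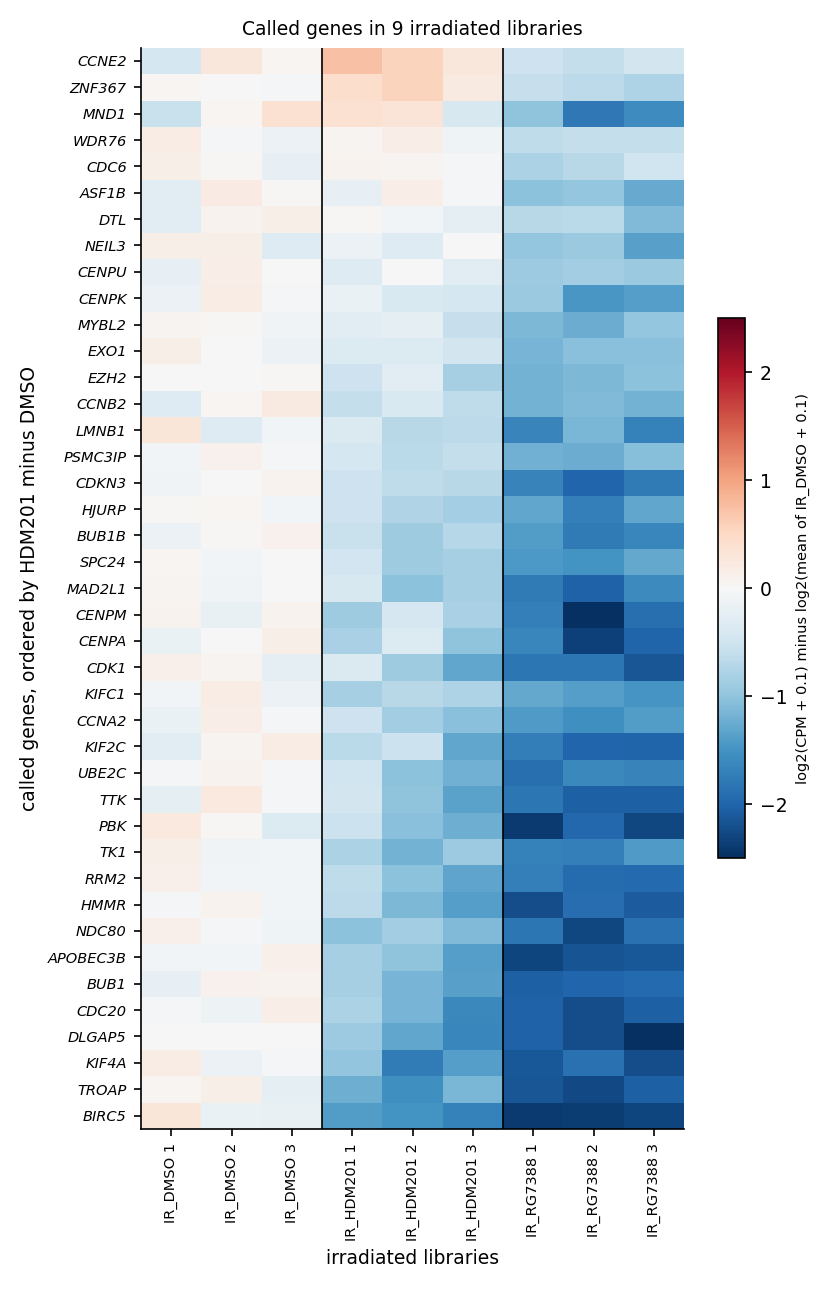
Each row is 1 of the 41 called genes and each column an irradiated library, with color for log2(CPM + 0.1) minus that of the IR_DMSO mean. Rows are ordered by the fold change with HDM201: the top rows (CCNE2 to NEIL3) are near white or red with HDM201 and blue with RG7388, and the lower rows are blue with both and darker with RG7388.

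In proliferating cells the compounds did not differ by call. With edgeR, 0 of 18151 genes (0%) passed, with 647 at an unadjusted p under 0.05 and a smallest adjusted p of 0.764, and the DESeq2 Wald test also called 0. For the 41 genes the median log2 fold change was -0.08, with a range from -0.44 to 0.16. The 95% interval lay within 1.5-fold either way for 36 of the 41 and within 2-fold for all 41. CDK1, for example, had -0.18 (interval -0.53 to 0.16), ASF1B -0.04 (-0.32 to 0.24) and CDC6 -0.01 (-0.24 to 0.22). The medians of the mitosis and replication lists were -0.10 and -0.04. Prolif_HDM201 3, which stood apart from its group, is part of this comparison. Without it edgeR again called 0 genes, with 1629 at an unadjusted p under 0.05 and a smallest adjusted p of 0.232. The lack of calls therefore does not show that the compounds acted alike in proliferating cells.

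The test of the difference between states gave 0 called genes with edgeR (0%), with 685 at an unadjusted p under 0.05. The smallest adjusted p, 0.201, was shared by several genes, among them BUB1B, CENPM and ASF1B. The DESeq2 Wald test called 18, all lower in the irradiated state, 9 of them mitosis and 4 replication genes. Without the pair of libraries that stood apart edgeR called 27, 26 lower and 1 higher, and Prolif_HDM201 3 is itself part of this test. All 41 genes had a state difference below 0 (median -0.83), but they were picked for the irradiated difference that enters it, so this is a description. The edgeR fit to all 18 libraries with the filter on low counts therefore showed a difference between states for no single gene, and without that filter it called 23.

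**Figure D4:**
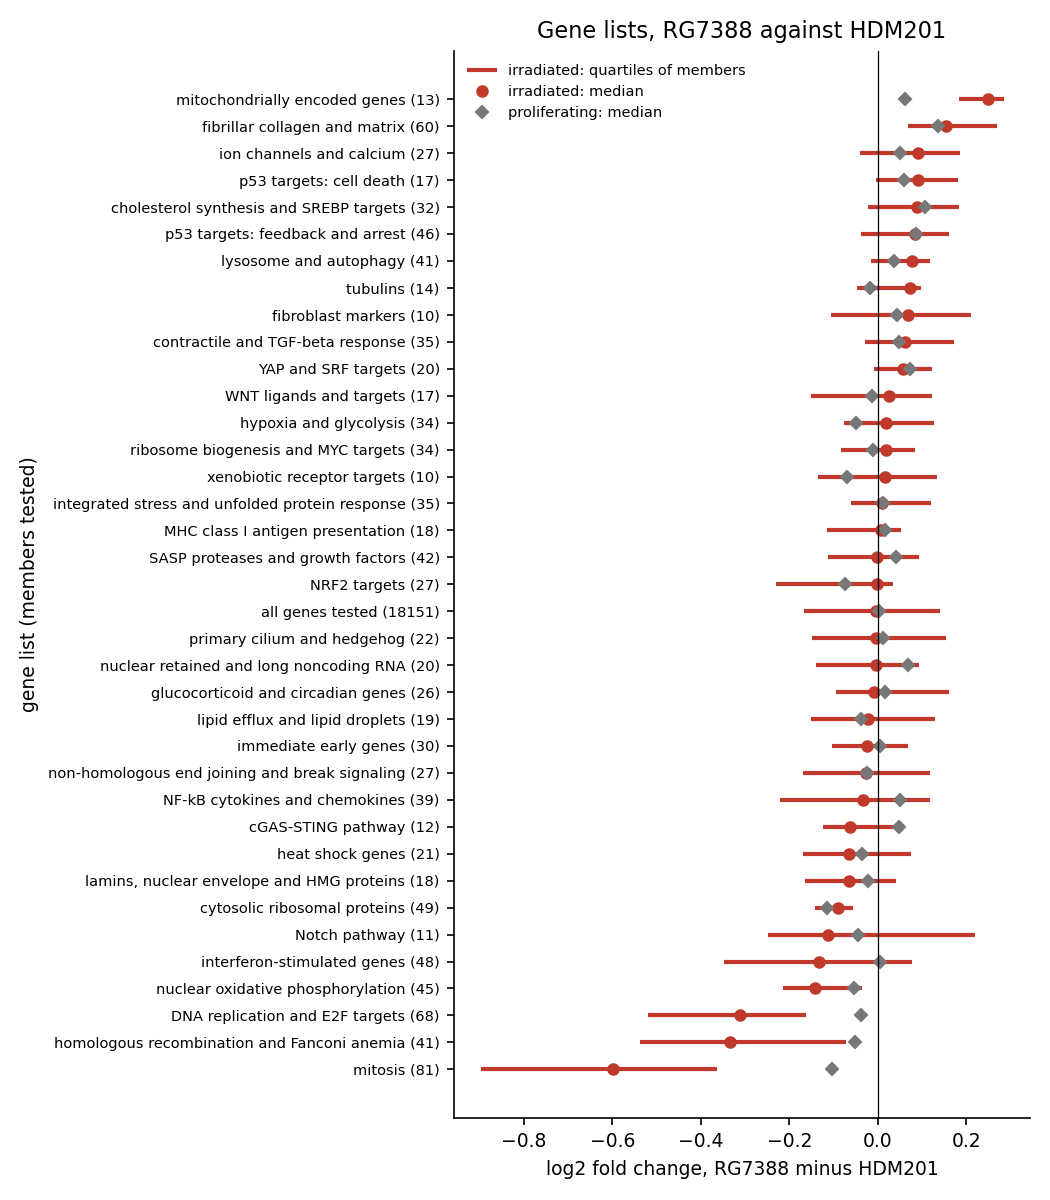
Median log2 fold change, RG7388 minus HDM201, of the members of each list with 10 or more genes tested, in irradiated cells (red points, with bars from the lower to the upper quartile of members) and in proliferating cells (grey diamonds). The mitosis, homologous recombination and replication lists lie lowest in irradiated cells at -0.60, -0.33 and -0.31, and the red points of the other lists lie between -0.14 and 0.25.

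The inflammatory genes that both compounds lowered did not differ between them by call in the edgeR fit to all 18 libraries. The study picked each dose as the lowest that held down the SASP, with the protein of CXCL8 as the readout. A likeness of CXCL8 and related genes between the compounds was thus partly set by the design. Of 39 NF-kB cytokine and chemokine genes edgeR called 0 between the compounds (2 higher and 4 lower at an unadjusted p under 0.05, median log2 fold change -0.03). With each compound 37 were called lower than in IR_DMSO, beside 11.9% of all genes with RG7388 and 11.3% with HDM201. Without the pair of libraries that stood apart edgeR called 1 of the 39 between the compounds, ICAM1, higher with RG7388 (log2 fold change 0.31, adjusted p = 0.036). CXCL8 (interleukin 8), a neutrophil chemokine, was at 10.2, 8.01 and 8.61 CPM with RG7388 and at 12.7, 10.1 and 12.3 CPM with HDM201, beside 574 to 709 CPM in IR_DMSO. Its groups overlapped (log2 fold change -0.39, interval -0.68 to -0.09, adjusted p = 0.538). IL6 was at 5.53, 5.11 and 6.30 CPM with RG7388 and at 5.58, 6.94 and 6.0 CPM with HDM201 (log2 fold change -0.12, interval -0.44 to 0.20). IL1A and IL1B were under 1 CPM on average in both groups, with wide intervals of -1.13 to 1.36 and -0.43 to 0.80. Over the whole list 41% of intervals lay within 1.5-fold and 59% within 2-fold, so differences of that size were not excluded for many members.

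Of 48 interferon-stimulated genes edgeR called 0 (1 higher and 5 lower at an unadjusted p under 0.05), 35 were below 0 and the median was -0.13. CXCL10, a chemokine of this response, was at 0.93, 0.90 and 1.11 CPM with RG7388 and at 1.61, 1.76 and 1.42 CPM with HDM201 (log2 fold change -0.70, interval -1.13 to -0.28, adjusted p = 0.315). B2M, the light chain of MHC class I, was at 577, 589 and 595 CPM with RG7388 and at 702, 802 and 725 CPM with HDM201 (log2 fold change -0.34, interval -0.54 to -0.14, adjusted p = 0.245). Both had groups that did not overlap and both missed the threshold. Without the pair of libraries that stood apart both were called lower (adjusted p = 0.0351 for CXCL10 and 0.0183 for B2M), and the DESeq2 Wald test called B2M (adjusted p = 0.0136) but not CXCL10 (adjusted p = 0.179). The 42 SASP proteases and growth factors had 0 calls with edgeR in the fit to all 18 libraries (1 higher and 2 lower at an unadjusted p under 0.05) and a median of -0.001. Without that pair 1 of them, MMP14, was called higher (log2 fold change 0.28, adjusted p = 0.0259).

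Most targets of p53 were close between the compounds. Of 46 arrest and feedback targets edgeR called 0 (2 higher and 1 lower at an unadjusted p under 0.05), the median log2 fold change was 0.08, and 87% of intervals lay within 1.5-fold. Values ran from -1.86 to 0.36, with 31 above 0. RG7388 libraries all lay above HDM201 libraries for 10 and below for 4, beside 9.99% and 9.5% of all genes. Against IR_DMSO 10 were called higher and 13 lower with RG7388 (10.9% and 11.9% of all genes), and 5 and 13 with HDM201 (9.96% and 11.3%). Of 17 cell death targets 0 were called (3 higher and 1 lower at an unadjusted p under 0.05), with a median of 0.09. MDM2 was at 172, 164 and 154 CPM with RG7388 and at 190, 150 and 147 CPM with HDM201 (log2 fold change 0.01, interval -0.36 to 0.37), beside 169 to 172 CPM in IR_DMSO. CDKN1A was at 2077, 2089 and 2165 CPM with RG7388 and at 1656, 1840 and 1795 CPM with HDM201. The groups did not overlap, and the log2 fold change of 0.26 (interval 0.04 to 0.48) missed the threshold (adjusted p = 0.618). Without the pair of libraries that stood apart CDKN1A was called higher (adjusted p = 0.0441), and the DESeq2 Wald test did not call it (adjusted p = 0.344). In proliferating cells the same comparison of CDKN1A gave 0.25 (interval 0.03 to 0.47).

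Other genes of the panel lay within the same bounds. GDF15, a secreted p53 target, had a log2 fold change of 0.18, the decoy receptor gene TNFRSF10D 0.23, the repair gene XPC 0.19, the death gene BBC3 0.09, the phosphatase gene PPM1D -0.02 and CDKN2A, which encodes p16, -0.12. None was called, and their intervals were within 1.5-fold. BTG1, an antiproliferative p53 target, was at 42.8, 43.2 and 41.8 CPM with RG7388 and at 52.8, 61.5 and 53.8 CPM with HDM201 (log2 fold change -0.39, adjusted p = 0.139). BTG1 was called lower without the pair of libraries that stood apart (adjusted p = 0.00571) and by the DESeq2 Wald test (adjusted p = 0.00382).

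**Figure D5:**
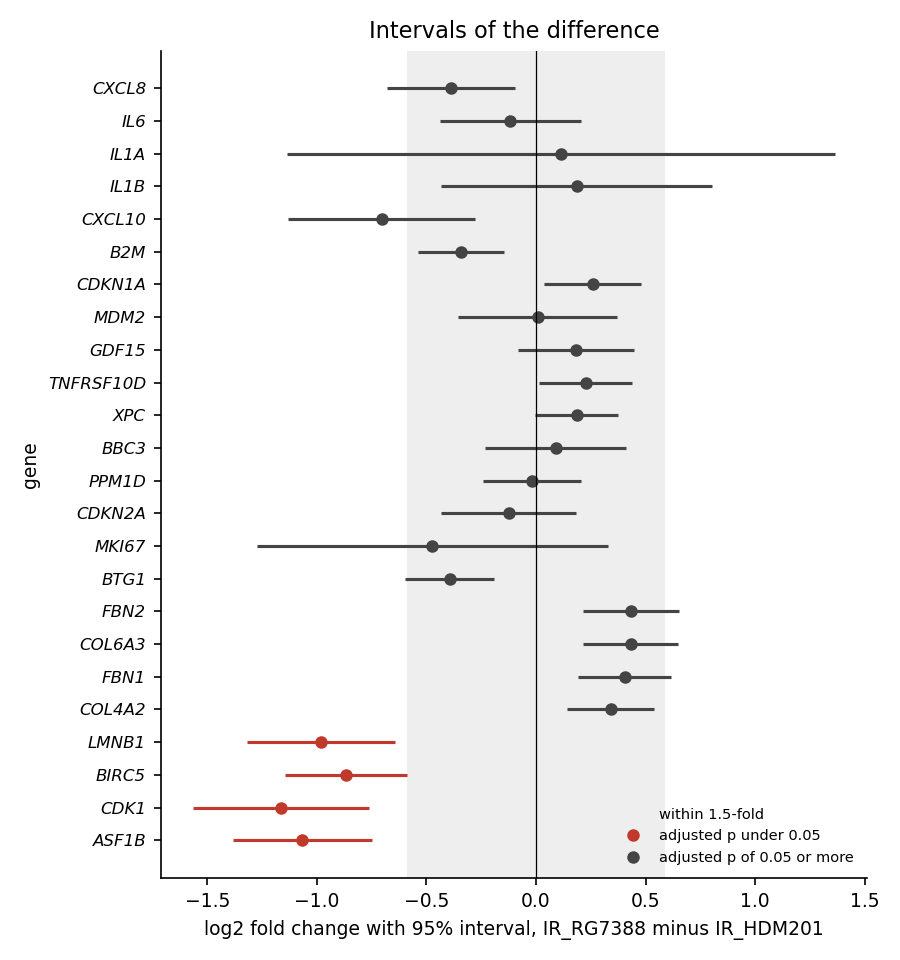
Log2 fold change with its 95% interval, IR_RG7388 minus IR_HDM201, for single genes, with the grey band marking 1.5-fold either way. The intervals of LMNB1, BIRC5, CDK1 and ASF1B (red) lie below 0 and past the band, and those of the p53 target genes CDKN1A, MDM2, GDF15 and XPC lie within it. The intervals of IL1A, IL1B, MKI67, CXCL8, CXCL10, BTG1, FBN2, COL6A3 and FBN1 cross its edge.

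Genes of the extracellular matrix had mostly positive values without a call. Of 60 collagen and matrix genes 48 were above 0 (median log2 fold change 0.15), beside 8939 of all 18151 genes tested above 0. RG7388 libraries all lay above HDM201 libraries for 27 of the 60, beside 9.99% of all genes. At an unadjusted p under 0.05, 16 were higher and 1 lower, beside 592 and 723 of all genes, and 0 were called. COL6A3, a chain of collagen VI, was at 2518, 2573 and 2272 CPM with RG7388 and at 1944, 1659 and 1853 CPM with HDM201 (log2 fold change 0.43 ± 0.10 SE, adjusted p = 0.122). FBN2 and FBN1, the fibrillins of elastic microfibrils, had 0.43 (adjusted p = 0.122) and 0.40 (adjusted p = 0.153), and COL4A2 of basement membranes 0.34 (adjusted p = 0.252). The DESeq2 Wald test called 4 of the 60 higher and 0 lower, beside 15 higher and 89 lower of 12418 genes tested. Without the pair of libraries that stood apart edgeR called 10 higher and 1 lower, where 0.687% and 0.992% of all genes were called. In proliferating cells the median of the list was 0.14.

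In the edgeR fit to all 18 libraries the remaining lists had 0 calls between the compounds. Their medians ran from -0.14 to 0.25 among those with 10 or more genes tested. Without the pair of libraries that stood apart, the contractile, YAP and SRF, cholesterol and mitochondrially encoded lists each had 2 genes called higher and 0 lower. The others had at most 1 call in either direction. Of all genes 0.687% were called higher and 0.992% lower in that fit. The 13 mitochondrially encoded genes were all above 0 (median 0.25), and 1 of the 13 intervals lay within 1.5-fold. Their sum was 24800, 26300 and 26600 CPM with RG7388 and 18100, 25700 and 22200 CPM with HDM201, lowest in library 1 and within the RG7388 range in library 2. In IR_DMSO 1, which entered the same fit, mitochondrial transcripts took 0.668% of counts, against 3.13% and 3.15% in IR_DMSO 2 and 3. Its part in the width of these intervals was not tested. The 49 cytosolic ribosomal protein genes had a median of -0.09 and the 45 nuclear oxidative phosphorylation genes -0.14. Fibroblast markers summed to 24400 to 26500 CPM with RG7388 and 22500 to 23200 CPM with HDM201. Leukocyte markers summed to 1.4 to 2.49 CPM over CD14 and CD68, the 2 of 6 that passed the filter. Endothelial markers summed to 1.3 to 1.94 CPM with RG7388 and 1.73 to 2.24 CPM with HDM201 over 5 genes of 6, of which 4 were below 0, with TIE1 at 0.28 ± 0.01 CPM with RG7388 and 0.69 ± 0.15 CPM with HDM201 (adjusted p = 0.287). The epithelial marker sums, 363 to 424 CPM and 288 to 403 CPM, came mostly from keratins.

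Across all genes, 95% intervals lay within 1.5-fold either way for 9655 genes (53.2%) and within 2-fold for 13035 (71.8%). Of 697 genes that fell at least 2-fold from IR_DMSO with both compounds, 8 were called lower with RG7388 than with HDM201. Of all genes tested 0.226% were called lower. Of the 697, 51.8% had intervals within 2-fold. Of 123 that rose at least 2-fold with both, 0 were called and 87% had intervals within 2-fold. Both sets were picked by a change in the same direction with both compounds in these same libraries, which limits how far the compounds can differ in them. For genes with intervals past these bounds, the data do not show that the compounds acted alike. Libraries held 31780451 to 63978868 counted reads in IR_RG7388 and 21609198 to 62011700 in IR_HDM201, and replicate libraries differed by more than sampling noise.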

How the data were processed

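Poly(A) RNA of 18 libraries was analyzed. The deposited counts are unnormalized: the authors aligned reads to hg38 with STAR and counted them per gene with HTSeq. The deposited FPKM values are from the authors' Cufflinks run, served only in alternatives, and held 55% blank cells, read here as 0. For tool versions, annotation release and strand handling, nothing was given in the sources used here. Coordinates are those of GENCODE 44 (99.46% of IDs matched). Groups came from the labels.

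Counts were analyzed with edgeR 4.0.16 in R 4.3.3: filterByExpr by group (18151 genes kept), TMM, robust quasi-likelihood fit of all 18 libraries with 1 mean per group (12 residual degrees of freedom), and Benjamini-Hochberg adjustment over all genes. A call is an adjusted p under 0.05. SEs were obtained by dividing log2 fold changes by the root of F. The script was tested on simulated data. Copies of 45 pseudoautosomal genes were left out. Same-numbered libraries of the groups compared correlated at -0.00758 to 0.1, and 8 of 45 same-number pairs were over 0.1, so replicates were taken as unpaired.

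The comparison and the 39 lists were chosen with earlier results of these data known. Named genes were a panel of 16, in each direction the 12 genes with the largest change and the 8 with the smallest p, by p up to 5 members of a list and up to 3 called members against it, and 6 per direction for states, of which a selection is given, and 1 gene of the panel is not reported here. Genes just outside the threshold and in no list were named after their values were seen. Alternatives were DESeq2 1.42.0 size factors and its Wald test, library totals, other filters, a replicate block, fewer libraries, limma 3.58.1 on log2 FPKM, and other thresholds.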

Additional observations from a re-analysis of the deposited data

How the results depend on the processing

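The count of 41 genes ran from 2 to 44 when each of the 6 libraries was left out in turn, lowest without IR_HDM201 1. The mitosis count of 22 ran from 1 to 19 and the replication count of 7 from 1 to 8. Of the 41, 0 kept their call in all 18 alternatives that did not change the threshold. ASF1B and CENPM kept it in 17, and 31 others in 10 to 14. With a replicate block, for libraries that are not paired, 39 genes were called in irradiated cells, 38 of the 41 among them, and 0 in proliferating cells and between states. With no filter 69 genes were called in irradiated cells (12 of the replication list), 7 in proliferating cells and 23 between states. A fit to only the groups compared gave 0 calls, 0 in either list. Without both libraries that stood apart there were 308 calls, 38 of the mitosis and 24 of the replication list, and 27 between states. Without these and IR_HDM201 1, added after seeing the data, 619 genes were called (386 higher, 233 lower; 40 of the 41; 21 of the replication list), with 7 in proliferating cells and 11 between states. The DESeq2 Wald test gave 104, 16 of the replication list, and 18 between states. On log2(FPKM + 0.1) with the filter limma called 44 genes, 26 of the 41 among them (18 mitosis, 8 replication). On log2(FPKM + 1) it called 5 genes with the filter and 10 without (1 of each list), and without the filter 4 in proliferating cells and 3 between states. Library totals alone called 12 of the replication list. An adjusted p under 0.01 left 26 calls (13 mitosis) and a 2-fold minimum 15 (9 mitosis, 2 replication). Between states, leaving out each library gave 0 to 7 calls, with 7 without Prolif_HDM201 3, and in proliferating cells 0. The cause was not tested.

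Several values near 0 changed sign. MDM2 was -0.00227 with DESeq2 size factors, -0.0348 with library totals, -0.000971 with DESeq2, -0.13 and -0.133 on FPKM, and -0.0537 to 0.133 without single libraries. CDKN2A was 0.0301 and 0.0344 on FPKM. BBC3 was -0.0266 to 0.202 without single libraries. PPM1D was 0.00454 without a filter, 0.0293 and 0.0343 on FPKM, 0.0576 without 3 libraries, and -0.0513 to 0.0493 without single ones. IL1A was -0.0866 in the fit to the groups compared, -0.12 with DESeq2, -0.0833 and -0.32 on FPKM, -0.804 without 3 libraries, and -0.824 to 0.883 without single ones. IL1B was -0.00447 and -0.0322 on FPKM, -0.0279 without 3 libraries, and -0.29 to 0.438 without single ones. None of these was called. IL1A and IL1B averaged under 1 CPM in both compound groups.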
